A study of Mus musculus with 27 samples.

Results

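The 9 genes described here encode scaffold proteins of the postsynaptic density. They are Dlg1, Dlg2, Dlg3 and Dlg4 of the membrane-associated guanylate kinase (MAGUK) family, Dlgap1, Shank1, Shank2, Shank3 and Homer1. The genes were taken by symbol (GENCODE vM21 names of the deposited Ensembl IDs). The rule used no measured value, but earlier results of these data were known when the genes were chosen. All 9 were found among the 37332 genes of the count table and the 53379 genes of the TPM table. Long RNA depleted of ribosomal RNA was sequenced from chromatin, nucleoplasm and cytoplasm of 3 mouse cell types. mESC is the E14 embryonic stem cell line kept with LIF, mNPC is a neural progenitor line kept with B27, EGF and FGF, and mCtx are primary cortical neurons after 5 days in culture. The labels name no engineered allele and no drug treatment in any group. Each of the 9 groups had 3 biological replicates, which made 27 libraries. mESC and mNPC are each 1 line, and the labels do not give the cultures or animals behind a replicate, so the p-values measure only the spread between these samples.

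The postsynaptic density is the protein meshwork under the membrane of an excitatory synapse. MAGUKs bind glutamate receptors and adhesion molecules at the membrane through their PDZ domains, and the protein of Dlg4, PSD-95, is the most abundant of them in mature excitatory synapses. Dlgap1 encodes a linker that joins MAGUKs to Shank proteins, Shank proteins form the deeper layer of the scaffold, and Homer1 cross-links Shank proteins and metabotropic glutamate receptors. Dlg1 is also a polarity protein of epithelial and many other cells, so its RNA is not restricted to neurons.

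All 9 genes lie on the + strand of mm10, and their spans in the count table differ widely. Dlg2 is the longest (chromosome 7, 91090706 to 92447003, 1356.3 kb), and Dlg4 is the shortest (chromosome 11, 70017085 to 70045532, 28.4 kb). Between them lie Dlgap1 (chromosome 17, 69969073 to 70821413, 852.3 kb), Shank2 (chromosome 7, 144001928 to 144424494, 422.6 kb), Dlg1 (chromosome 16, 31663443 to 31873356, 209.9 kb) and Homer1 (chromosome 13, 93303757 to 93404129, 100.4 kb). The other three are Shank3 (chromosome 15, 89499623 to 89560261, 60.6 kb), Dlg3 (chromosome X, 100767722 to 100818410, 50.7 kb) and Shank1 (chromosome 7, 44310253 to 44358351, 48.1 kb). Genes on the opposite strand in the same table cover 9.2% of the span of Shank2 (Gm14372), 5.91% of Shank3 (Gm15609) and 1.05% of Shank1 (1700008O03Rik). The strand setting of the counting is not given in the sources used here, so reads of these genes and of their antisense partners cannot be told apart.

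The start-site windows of 4 genes are printed here, of Dlg1, Dlg2 and Dlg4 because the results turn on them and of Shank3 because it held the most CpG dinucleotides, 250 bases before to 50 bases after the RefSeq start site nearest to the deposited gene start (GRCm38.p6, + strand), with CpG dinucleotides in capitals.
Dlg1, chr16:31663193-31663492: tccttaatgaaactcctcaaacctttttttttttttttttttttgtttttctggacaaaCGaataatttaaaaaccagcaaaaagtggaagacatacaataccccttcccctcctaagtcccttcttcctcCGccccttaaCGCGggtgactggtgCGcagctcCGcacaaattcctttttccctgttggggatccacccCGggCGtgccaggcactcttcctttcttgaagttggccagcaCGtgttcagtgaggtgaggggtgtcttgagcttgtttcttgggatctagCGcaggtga
Dlg2, chr7:91090536-91090835: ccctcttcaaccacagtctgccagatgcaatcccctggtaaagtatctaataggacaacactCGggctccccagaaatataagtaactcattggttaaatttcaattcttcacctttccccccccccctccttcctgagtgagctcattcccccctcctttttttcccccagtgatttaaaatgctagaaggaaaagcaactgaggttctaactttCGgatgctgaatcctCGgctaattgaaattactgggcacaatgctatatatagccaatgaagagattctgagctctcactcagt
Dlg4, chr11:70016953-70017252: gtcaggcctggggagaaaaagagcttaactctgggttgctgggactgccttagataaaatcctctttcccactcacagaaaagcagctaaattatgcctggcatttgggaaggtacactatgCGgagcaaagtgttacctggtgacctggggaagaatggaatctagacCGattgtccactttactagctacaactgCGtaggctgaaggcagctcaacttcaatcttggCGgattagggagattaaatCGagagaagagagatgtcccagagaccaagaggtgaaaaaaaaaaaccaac
Shank3, chr15:89499358-89499657: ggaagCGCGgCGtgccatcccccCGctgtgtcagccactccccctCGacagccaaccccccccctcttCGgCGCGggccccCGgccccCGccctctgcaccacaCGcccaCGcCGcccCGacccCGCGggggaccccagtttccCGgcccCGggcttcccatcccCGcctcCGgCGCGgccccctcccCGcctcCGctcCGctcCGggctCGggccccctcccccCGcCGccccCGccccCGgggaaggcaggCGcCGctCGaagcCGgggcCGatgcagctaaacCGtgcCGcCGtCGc
The Shank3 window held 40 CpG dinucleotides and was 81.0% G or C, whereas the Dlg2 window held 3 and the Dlg4 window 5. The Dlg1 window held 10, and the next RefSeq start of Dlg1, 492 bases downstream, had 27. Further RefSeq starts of Dlg4 had 12 and 16, and those of Dlg2 had 1 and 2. Over all 32851 RefSeq windows of 27025 mouse genes the median was 7 CpG dinucleotides, and 34.64% of windows held at least 15. RefSeq windows were matched for 7 of the 9 genes (17 windows), and Shank1 and Shank2 were not matched. On either strand, the GC box GGGCGG was found 4 times in the Shank3 window and 1 time in the Dlg1 window, and 35.66% of all windows held it. Among windows not printed, the next Dlg1 start held it 2 times, the Dlg4 start with 16 CpG dinucleotides 2 times and a Dlg3 start 1 time. The cyclic AMP response element TGACGTCA (1.79% of all windows) and the left half-site TTCAGCACC of the RE1 element (0.37% of all windows) were in none of the 17 windows, which says only that these letters are not there.

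Each gene was measured in 2 ways. The deposited counts cover the gene spans of the count table, introns included. They are given as CPM, counts relative to the library's total after trimmed-mean (TMM) scaling, so a long gene with unspliced RNA takes a high CPM. The GENCODE vM21 span of Dlg2 is longer than its counted span, so part of that gene is outside its counts. The deposited TPM are length-scaled transcript levels and allow levels of different genes to be compared. A gene was called where the adjusted p was below 0.05, by edgeR's quasi-likelihood test on the counts of 18249 genes or by limma on log2(TPM + 1) of 28815 genes. All 9 genes passed both filters on low values. The TPM of all genes shifted between fractions, and the median log2 difference between chromatin and cytoplasm was 0.53 for mESC, 0.24 for mNPC and 1.03 for mCtx, so TPM differences are given after rescaling each library by its median ratio (26796 genes), which left medians of 0.21, 0.18 and 0.35. The pseudocount of 1 compresses differences of genes under 1 TPM. In bulk RNA, fewer cells of a type and less RNA per cell cannot be told apart. Both measures are relative to the other RNA of the same library, and no amount of RNA per fraction was used. A difference between fractions therefore does not show which fraction of a cell holds most RNA of a gene.

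Total counts per library ran from 11249862 to 19871198. The labelled cell types carried their defining markers in cytoplasm. The summed TPM of 5 pluripotency genes ran from 2030 to 2540 in mESC and stayed at or under 0.23 elsewhere, that of 5 progenitor genes ran from 768 to 987 in mNPC, and that of 6 neuronal genes ran from 591 to 624 in mCtx. The mCtx cultures also held progenitor markers (240 to 309, mostly Fabp7 at 255), 4 interneuron markers (13.5 to 15) and 4 astrocyte markers (10.2 to 12.2), while Dppa5a and Pou5f1 were at 0 and 4 microglial markers summed to at most 0.83. The neuronal sum was 41.9 to 70.7 in mESC, mostly Tubb3, and 37.5 to 64.2 in mNPC, mostly Map2. The progenitor sum was 124 to 128 in mESC cytoplasm, and the astrocyte sum was 8.59 to 20.2 in mNPC cytoplasm. In mCtx the astrocyte sum was 54.9 to 86.3 in chromatin and 43 to 52.9 in nucleoplasm. The part of these other cell types in the results was not tested.

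In cytoplasm, the scaffold genes as a group were highest in mCtx, and the leading gene changed from one cell type to the next. The summed rescaled TPM of the 9 genes was 28.06 ± 0.73 (SD, n = 3) in mESC, 26.73 ± 1.31 in mNPC and 110.88 ± 4.34 in mCtx, and the ranges of mESC and mNPC overlapped. As deposited, the sums were 28.3 ± 1.67, 16.24 ± 3.11 and 79.15 ± 2.51 TPM. Dlg1 made up 50.93% ± 5.6 of that sum in mESC, 21.93% ± 0.4 in mNPC and 3.83% ± 0.42 in mCtx. Dlg4 made up 9.2% ± 1.56, 34.47% ± 0.49 and 26.87% ± 0.84.

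By mean TPM in mESC cytoplasm the order was Dlg1 (14.3), Dlg3 (4.97), Homer1 (4.71), Dlg4 (2.62), Shank3 (1.1) and Dlgap1 (0.303), with Shank2 (0.1), Shank1 (0.1) and Dlg2 (0.0367) lowest. The library ranges of neighbours overlapped between Dlg3 and Homer1 and among Shank2, Shank1 and Dlg2. In mNPC cytoplasm the order was Dlg4 (5.6), Homer1 (3.88), Dlg1 (3.56), Dlg3 (1.66), Dlgap1 (0.93) and Shank3 (0.457), and neither Dlg4, Homer1 and Dlg1 at the top nor Shank2 (0.1), Dlg2 (0.04) and Shank1 (0.01) at the end were separated from their neighbours. In mCtx cytoplasm the order was Dlg4 (21.3), Dlg2 (18.2), Homer1 (13.0), Dlgap1 (9.03), Dlg3 (5.25), Shank3 (4.22), Dlg1 (3.07), Shank1 (2.6) and Shank2 (2.48). There, only Dlg1 with Shank1, and Shank1 with Shank2, had ranges that overlapped those of their neighbours.

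**Figure D1:**
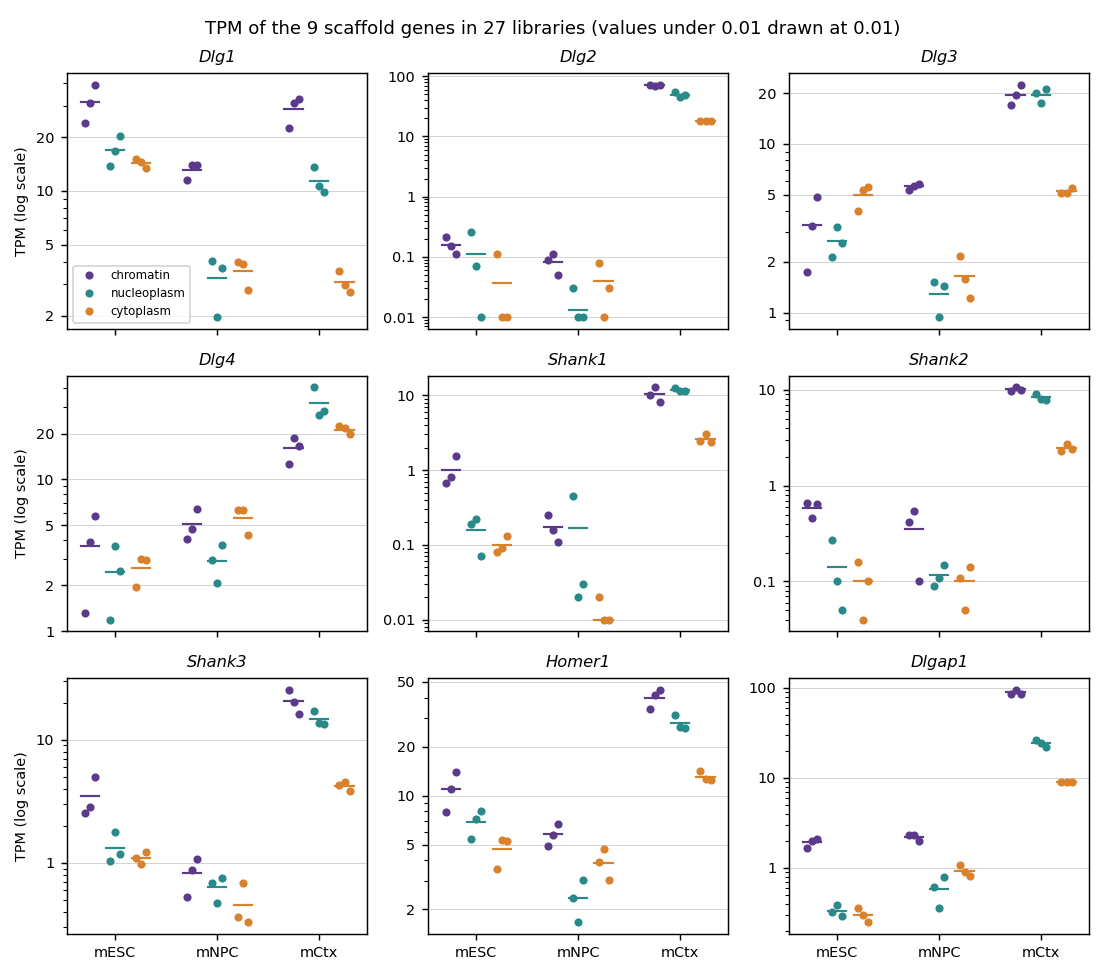
TPM of each scaffold gene (log axis) in the 27 libraries, by cell type and fraction; points are libraries and lines are means of 3. Dlg2, Dlgap1, Shank1 and Shank2 are higher in every mCtx library than in any mESC or mNPC library, while the deposited TPM of Dlg1 overlap between mESC chromatin (23.9 to 39.28) and mCtx chromatin (22.54 to 32.61), where counts and rescaled TPM (-0.34, adjusted p = 0.013) both called Dlg1 lower in mCtx.

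Between mCtx and mNPC in cytoplasm, 8 of the 9 genes rose and Dlg1 fell by edgeR's quasi-likelihood test on counts. Of all genes, 32.6% were higher and 33.4% lower in that comparison, and the median log2 difference was 2.99 for the 9 genes and 0 for all genes. With rescaled TPM the same split of 8 and 1 was called, where 21.0% of all genes were higher and 20.4% lower, with medians of 1.93 and 0.01. Between mNPC and mESC in cytoplasm the genes divided, 3 higher (Dlg4, Dlgap1, Homer1) and 4 lower (Dlg1, Dlg3, Shank1, Shank3), against 36.5% and 39.4% of all genes. Rescaled TPM called the same 3 higher and only Dlg1 and Dlg3 lower (21.1% and 26.0% of all genes). Between mCtx and mESC, which shares both its groups with the other comparisons, 8 were higher and 1 lower, against 40.1% and 41.6%.

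Dlg2, a MAGUK of neurons whose protein is also known as PSD-93, went from almost no reads to one of the leading members. Its counts in mNPC cytoplasm were 9, 6 and 2 per library, and in mCtx cytoplasm it stood at 266, 237 and 265 CPM. No library of one group came near the other, and the log2 difference was 9.57 (SE 0.41, n = 3 each, adjusted p = 5.55e-17 by edgeR). The size of the fold rests on these few counts in mNPC. By TPM, mCtx cytoplasm held 17.91 to 18.33 and mNPC cytoplasm 0.01 to 0.08, a difference of 4.64 on the rescaled log2(TPM + 1) scale. In mESC cytoplasm Dlg2 was also near 0, at 0 to 0.11 TPM.

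Dlg4 rose at both steps. The mESC cytoplasm libraries stood at 8.99, 14.2 and 12.6 CPM, the mNPC libraries at 39.0, 48.5 and 47.9 and the mCtx libraries at 150.5, 160.2 and 163.8. The 3 groups did not overlap, and the log2 differences were 1.92 (SE 0.23, adjusted p = 2.12e-08 by edgeR) from mESC to mNPC and 1.81 (SE 0.21, adjusted p = 3.42e-08) from mNPC to mCtx. Rescaled TPM gave 1.52 and 1.59, both called.

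Dlg1 moved the other way. Cytoplasm of mESC held 107.6, 94.3 and 92.8 CPM of it, that of mNPC 48.0, 50.9 and 47.4, and that of mCtx 40.1, 38.8 and 41.1. Each group lay below the one before without overlap, with a log2 difference of -1.01 (SE 0.10, adjusted p = 8.77e-10 by edgeR) at the first step and -0.29 (SE 0.10, adjusted p = 0.0147) at the second. The second call was lost without mNPC cytoplasm replicate 2 (-0.26, adjusted p = 0.0536), without mCtx cytoplasm replicate 2 (-0.27, adjusted p = 0.0507) and with total-count scaling (-0.15, adjusted p = 0.22). Rescaled TPM called both steps, at -1.15 and -0.38.

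Dlg3, the X-linked MAGUK, fell and then rose. In cytoplasm it had 25.3, 36.1 and 35.8 CPM among the mESC libraries, 25.0, 24.2 and 22.2 among those of mNPC and 74.5, 77.3 and 76.0 among those of mCtx. The mCtx libraries stood well above both lines, and the lowest mESC library lay close to the highest mNPC library. The log2 difference was -0.44 (SE 0.13, adjusted p = 0.0036 by edgeR) at the first step and 1.67 (SE 0.13, adjusted p = 1.51e-11) at the second, and rescaled TPM called both, at -0.67 and 1.18.

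The 3 Shank genes had little RNA in either line and rose together in mCtx. Shank1 had 12, 2 and 5 reads per library in mNPC cytoplasm and stood at 52.9, 58.4 and 50.2 CPM in mCtx cytoplasm, a log2 difference of 7.16 (SE 0.29, adjusted p = 1.87e-17 by edgeR) that rests on few reads in mNPC. Shank2 went from 2.31, 2.10 and 2.59 CPM to 69.6, 80.1 and 73.7 CPM, a log2 difference of 5.00 (SE 0.33). Shank3 went from 11.6, 11.0 and 9.29 CPM to 78.1, 91.1 and 84.5 CPM, a log2 difference of 2.99 (SE 0.16). The mCtx libraries lay far above the mNPC libraries for each. In mESC cytoplasm Shank3 was at 13.84, 14.33 and 15.02 CPM, slightly above every mNPC library. The difference of -0.43 (SE 0.16, adjusted p = 0.0144 by edgeR) was lost without mNPC cytoplasm replicate 3 (-0.34, adjusted p = 0.0798) and was not called with rescaled TPM (-0.27, adjusted p = 0.168).

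The linker Dlgap1 and the cross-linker Homer1 both rose at both steps by counts. Dlgap1 stood at 7.49, 5.71 and 5.69 CPM in mESC cytoplasm, at 15.6, 13.4 and 13.1 in mNPC and at 174.8, 169.2 and 176.2 in mCtx. Its groups were wide apart, with log2 differences of 1.16 (SE 0.18) and 3.62 (SE 0.18), adjusted p = 2.71e-06 and 1.43e-15 by edgeR. Homer1 stood at 26.1, 32.6 and 34.5 CPM in mESC cytoplasm, at 41.2, 51.3 and 39.4 in mNPC and at 137.9, 108.6 and 123.1 in mCtx. Its first step was small, 0.50 (SE 0.16, adjusted p = 0.00561 by edgeR), and its second 1.49 (SE 0.16, adjusted p = 4.35e-09). For Homer1 the first step was 0.40 with rescaled TPM and called, but -0.22 (adjusted p = 0.489) with TPM as deposited.

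**Figure D2:**
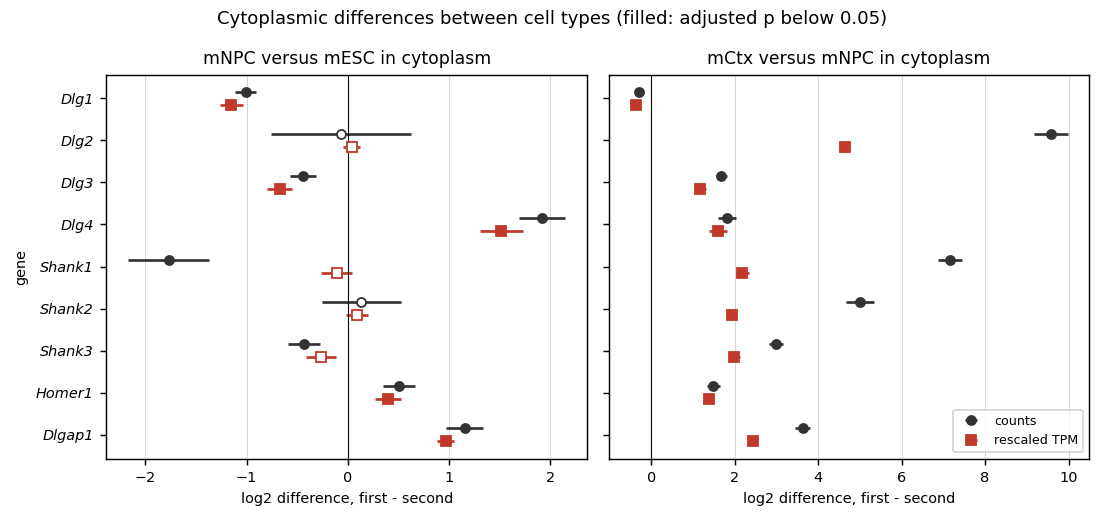
Log2 differences of each scaffold gene in cytoplasm between mNPC and mESC (left) and between mCtx and mNPC (right), by edgeR on counts (circles) and limma on rescaled log2(TPM + 1) (squares), with SE bars and filled symbols for adjusted p below 0.05. At the right, 8 genes lie above 0 and Dlg1 alone lies below it by both measures; with total-count scaling its difference of -0.15 is not called.

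In chromatin and nucleoplasm, too, most of the 9 genes were highest in mCtx. Between mCtx and mNPC, 8 genes were higher and 0 lower in chromatin (30.2% and 39.2% of all genes), and 9 were higher and 0 lower in nucleoplasm (36.9% and 34.9%). Median log2 differences of the 9 genes were 3.53 in chromatin, where all genes had -0.18, and 2.74 in nucleoplasm, where all genes had 0. Between mCtx and mESC, 8 were higher and 1 lower in chromatin (33.0% and 47.4%), and 8 higher and 0 lower in nucleoplasm (38.8% and 43.4%). For mCtx versus mNPC, rescaled TPM called 7 higher and 0 lower in chromatin (41.6% and 22.3%), and 8 and 0 in nucleoplasm (39% and 24.4%). For mCtx versus mESC it called 8 and 1 in chromatin (40.6% and 30.9%), and 8 and 1 in nucleoplasm (39.6% and 29.6%). The lower gene in nucleoplasm was Dlg1 (-0.93, adjusted p = 3.42e-07 by limma), which counts did not call there. Between mNPC and mESC, 4 were higher and 3 lower in chromatin (33.8% and 42.7%), and again 4 and 3 in nucleoplasm (35.7% and 41.5%). For this pair of lines the tallies turned with the measure. Rescaled TPM called 3 higher and 3 lower in chromatin (25.1% and 35.5%) and 2 higher and 1 lower in nucleoplasm (23.9% and 27.6%). TPM as deposited called 1 and 4 in chromatin (10.5% and 59.1%) and 0 and 4 in nucleoplasm (7.38% and 41.7%), where the median of all genes was itself at -0.56 and -0.26.

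Dlg2 and Dlgap1, the genes with the longest spans, were among the most read genes of mCtx chromatin. Dlg2 stood there at 6279, 7097 and 7802 CPM, which was 0.5426% ± 0.0339 of all counts, and it ranked 8 among all genes by counts but 689 by TPM. Dlgap1 stood at 3707, 4087 and 4232 CPM and ranked 26 by counts and 517 by TPM. Counts include the span of a gene in the count table, introns included, whereas TPM are length-scaled transcript levels. The cause of the gap between the ranks was not tested. From mNPC to mCtx in chromatin, Dlg2 differed by 9.56 (SE 0.35) and Dlgap1 by 5.60 (SE 0.19) on the log2 scale, both called by edgeR. Dlg1 did not pass there (0.16, adjusted p = 0.145) and was the one gene outside the call. It was called without mCtx chromatin replicate 1 (0.25, adjusted p = 0.0397), reversed to -0.45 (adjusted p = 0.000239) with total-count scaling and was at -0.06 with rescaled TPM. For Dlg3 in the same comparison the call of 0.55 became -0.06 with total-count scaling.

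**Figure D3:**
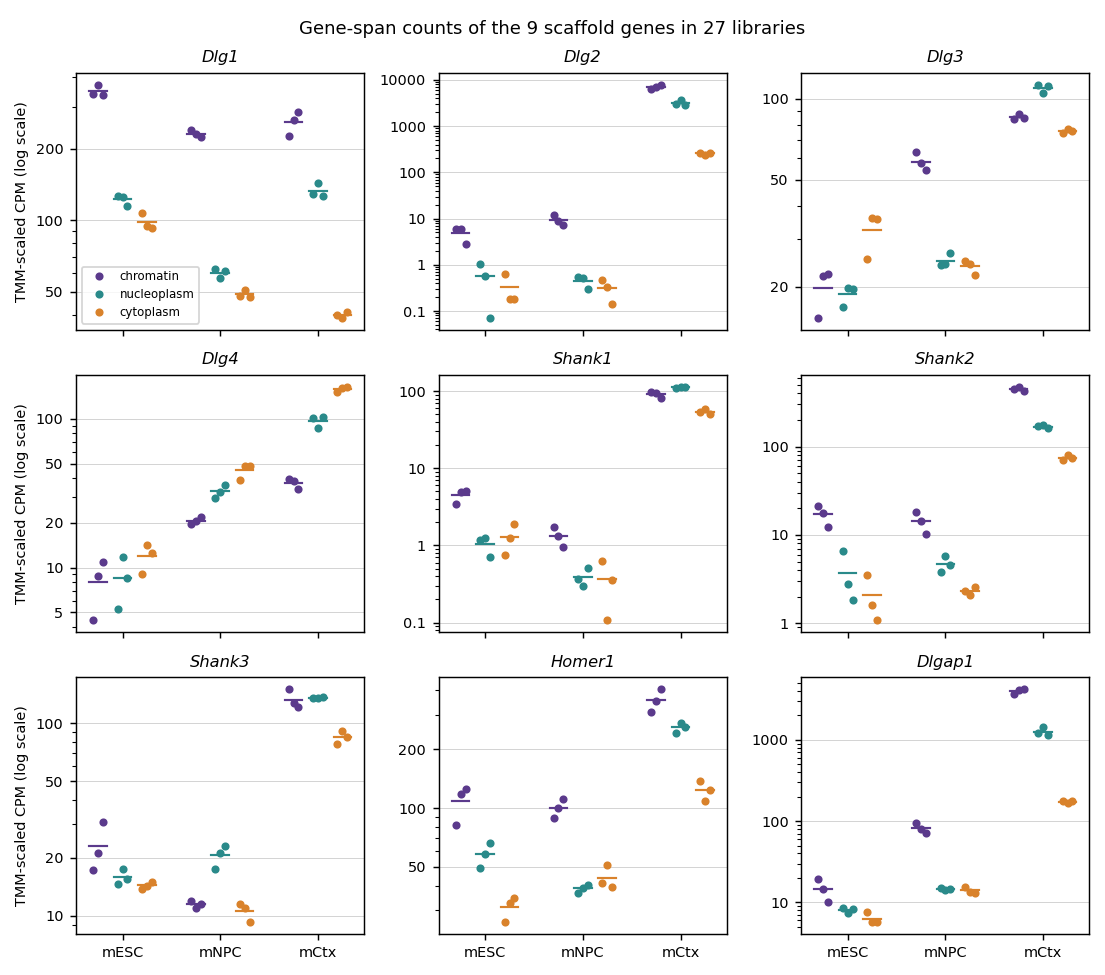
TMM-scaled CPM of gene-span counts (log axis) of each scaffold gene in the 27 libraries, by cell type and fraction; points are libraries and lines are means of 3. Chromatin is highest for Dlg1, Dlg2, Shank2, Homer1 and Dlgap1 in all 3 cell types, while Dlg4 is highest in cytoplasm.

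Between the fractions, most scaffold genes were higher in chromatin than in cytoplasm by counts, and Dlg4 was lower in every cell type, though in mESC its sign turned with TPM as deposited (0.24). In mESC 7 genes were higher in chromatin and 2 lower, against 44.6% and 32.9% of all genes. In mNPC 7 were higher and 1 lower (37.0% and 32.5%), and in mCtx 7 were higher and 1 lower (35.6% and 37.6%). The median log2 difference of the 9 genes was 1.80, 1.84 and 1.53 in turn, and that of all genes 0.36, 0.06 and 0. By rescaled TPM, whose unit takes transcript length and not gene span, the medians of the 9 genes were 0.32, 0.23 and 0.42. As deposited they were 0.85, 0.32 and 1.72, beside 0.53, 0.24 and 1.03 for all genes. TPM as deposited called 6 higher and 1 lower in mESC (56.8% and 16.4% of all genes), 5 and 0 in mNPC (41.3% and 15.1%) and 8 and 0 in mCtx (68.9% and 9.99%). Rescaled TPM called 6 and 1 in mESC (44.7% and 26.9%), 3 and 1 in mNPC (42.0% and 24.8%) and 7 and 1 in mCtx (48.8% and 26.7%). By rescaled TPM the 3 of 9 higher genes in mNPC are a smaller share than among all genes.

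In mCtx the Dlg4 counts climbed from chromatin through nucleoplasm to cytoplasm. In chromatin they were 39.6, 38.1 and 33.9 CPM, the nucleoplasm libraries had 101.6, 87.1 and 102.9, and the cytoplasm libraries 150.5, 160.2 and 163.8. The 3 fractions did not overlap, and chromatin against cytoplasm gave -2.09 (SE 0.22, adjusted p = 2.45e-09 by edgeR). In mNPC chromatin held 19.7, 20.6 and 21.8 CPM against 39.0, 48.5 and 47.9 in cytoplasm, a difference of -1.12 (SE 0.22, adjusted p = 5.15e-05). Rescaled TPM called both, at -1.80 and -0.63. In mCtx TPM as deposited, nucleoplasm held 26.57 to 40.45 and cytoplasm 19.84 to 22.36, the reverse order, and that difference of 0.54 was not called (adjusted p = 0.149) and stood beside a median of 0.46 over all genes. Rescaled TPM gave -0.55 (adjusted p = 0.0346).

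In mESC the Dlg4 libraries of the 2 fractions were less far apart. Chromatin libraries stood at 4.44, 8.83 and 10.9 CPM and cytoplasm libraries at 8.99, 14.2 and 12.6, so the groups overlapped, but chromatin was lower in each same-numbered pair. The difference was -0.57 (SE 0.235, adjusted p = 0.0302 by edgeR). It was lost without mESC chromatin replicate 1 (-0.27, adjusted p = 0.248), cytoplasm replicate 2 (-0.43, adjusted p = 0.134) or cytoplasm replicate 3 (-0.53, adjusted p = 0.0691), and with total-count scaling (-0.10, adjusted p = 0.717). Leaving out 1 library breaks a pair, and with the replicate number as a block all pairs gave -0.60 (adjusted p = 0.000179). TPM as deposited gave 0.24 (adjusted p = 0.516) and rescaled TPM -0.31 (adjusted p = 0.2).

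Dlg3 changed sides. In mESC it was lower in chromatin (15.3, 21.9 and 22.3 CPM) than in cytoplasm (25.3, 36.1 and 35.8 CPM), by -0.71 (SE 0.13, adjusted p = 2.65e-05 by edgeR). In mNPC it was higher in chromatin (63.2, 57.9 and 54.1 CPM against 25.0, 24.2 and 22.2), by 1.29 (SE 0.13, adjusted p = 1.47e-09). Neither pair of groups overlapped, and rescaled TPM called both with the same signs, at -1.07 and 0.98. In mCtx the difference of 0.17 (adjusted p = 0.231) was not called, and its sign depended on scaling, with 0.45 by DESeq2 (adjusted p = 0.000683), 0.35 by rescaled TPM (adjusted p = 0.016) and -0.40 (adjusted p = 0.00922) with total-count scaling. With total-count scaling the mESC call was also lost (-0.24, adjusted p = 0.114).

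Dlg1, Dlg2 and Dlgap1 were higher in chromatin in all 3 cell types by counts. Dlg1 had 338.6, 371.4 and 337.5 CPM in mESC chromatin, 239.3, 231.1 and 223.7 in mNPC chromatin and 227.1, 263.9 and 285.4 in mCtx chromatin. Each lay far above cytoplasm, and its log2 difference was 1.83 (SE 0.10), 2.25 (SE 0.10) and 2.69 (SE 0.105) in turn. Rescaled TPM called all 3, at 0.32, 1.19 and 1.51. Dlg2 differed by 3.79 (SE 0.435), 4.79 (SE 0.42) and 4.79 (SE 0.28) by counts. With rescaled TPM Dlg2 had 0.08, 0.04 and 0.43, of which the last was called, and its TPM in both lines was at most 0.26 in any library. Dlgap1 differed by 1.22 (SE 0.18), 2.55 (SE 0.175) and 4.53 (SE 0.185) by counts and by 0.70, 0.45 and 1.72 with rescaled TPM, all called.

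The Shank genes were mostly higher in chromatin. Shank2, which binds the linker through its PDZ domain as the other Shank proteins do, differed by 3.02 (SE 0.33), 2.63 (SE 0.33) and 2.59 (SE 0.27), all called by edgeR. Shank1 differed by 1.80 (SE 0.26), 1.84 (SE 0.40) and 0.76 (SE 0.18), all called, on 14 to 29 reads per library in mNPC chromatin and 2 to 12 in mNPC cytoplasm. Shank3 differed by 0.69 (SE 0.15) in mESC and 0.65 (SE 0.14) in mCtx, both called, and by 0.11 (adjusted p = 0.549) in mNPC. Rescaled TPM gave 0.29, 0.24 and 0.42 for Shank2, 0.51, 0.23 and 0.39 for Shank1 and 0.49, 0.13 and 0.68 for Shank3, and the mNPC values of Shank2 (adjusted p = 0.0602), Shank1 (adjusted p = 0.185) and Shank3 (adjusted p = 0.463) were not called. With total-count scaling the mCtx calls of Shank1 (0.19, adjusted p = 0.352) and Shank3 (0.09, adjusted p = 0.628) were lost. Homer1 differed by 1.80 (SE 0.16), 1.19 (SE 0.16) and 1.53 (SE 0.155) by counts, all called, but by 0.37, 0.01 and 0.10 with rescaled TPM, of which the first was called.

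**Figure D4:**
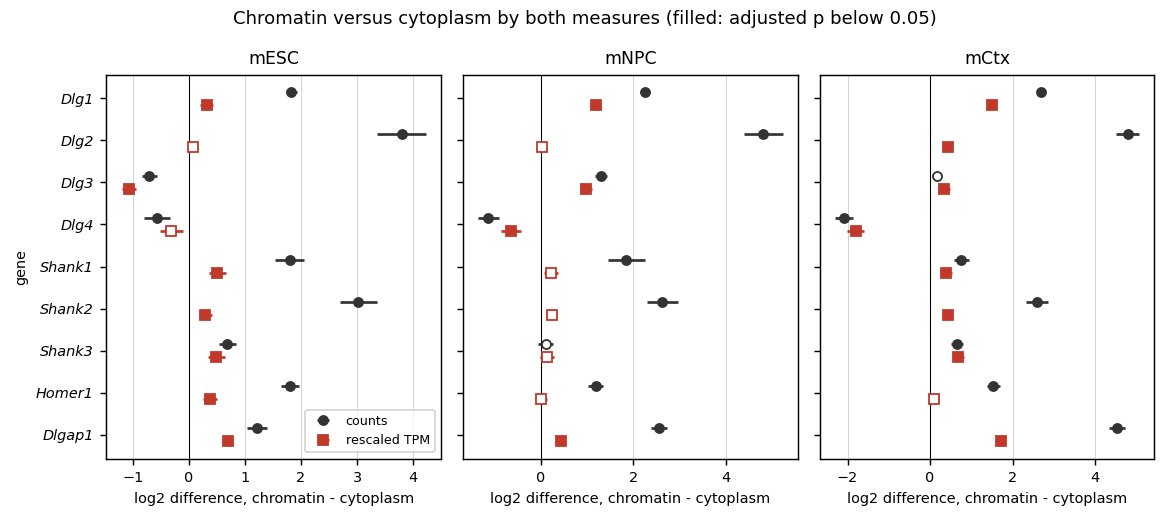
Log2 differences between chromatin and cytoplasm of each scaffold gene in mESC, mNPC and mCtx, by edgeR on counts (circles) and limma on rescaled log2(TPM + 1) (squares), with SE bars and filled symbols for adjusted p below 0.05. Dlg4 lies left of 0 in each cell type, with the rescaled TPM of mESC not called, and Dlg3 lies left of 0 in mESC and right of it in mNPC; the count difference of Dlg3 in mCtx (0.17) turns to -0.40 with total-count scaling.

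By counts most of the 9 genes were lower in nucleoplasm than in chromatin, and in both lines most were not separated from cytoplasm. Against chromatin, 0 genes were higher and 7 lower in mESC (30.0% and 36.3% of all genes), 2 higher and 7 lower in mNPC (32.5% and 33.5%), and 2 higher and 5 lower in mCtx (30.6% and 26.5%). Rescaled TPM called 0 and 5 in mESC (23.5% and 40.3%), 1 and 3 in mNPC (25.3% and 38.5%), and 3 and 2 in mCtx (21.8% and 43.5%). In mNPC the 2 higher genes by counts were Dlg4 (0.65), not called by rescaled TPM (0.21, adjusted p = 0.421), and Shank3 (0.84), called by it at 0.37. As deposited, TPM there called 0 higher and 5 lower (10.2% and 44.8%), with Dlg4 at -0.64 and Shank3 at -0.15, neither called, beside a median of -0.30 over all genes. In mCtx the 2 were Dlg3 (0.36) and Dlg4 (1.38), both also called by rescaled TPM, while Dlg3 was at 0.00 by TPM as deposited, beside a median of -0.54. Rescaled TPM also called Shank1 higher there (0.498, adjusted p = 0.00633 by limma), which counts did not call.

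Against cytoplasm, 3 were higher and 1 lower in mESC (29.9% and 33.2%), 3 higher and 0 lower in mNPC (22.6% and 27.5%), and 8 higher and 1 lower in mCtx (29.6% and 28.6%). Rescaled TPM called 1 and 1 in mESC (17.7% and 25.3%), 1 and 0 in mNPC (14.6% and 17.3%), and 7 and 1 in mCtx (32.4% and 21.4%). In both lines TPM as deposited called 0 higher, with 1 lower in mESC (16.3% and 17.2%) and 2 lower in mNPC (6.56% and 18.6%). In mCtx Dlg4 was the lower gene (-0.70, SE 0.21, adjusted p = 0.00518 by edgeR). Dlg2 was the gene with the widest gap there, at 3063, 3595 and 2909 CPM in nucleoplasm against 266, 237 and 265 CPM in cytoplasm, a log2 difference of 3.64 (SE 0.27).

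Shank2 in mESC had few reads and was higher in nucleoplasm than in cytoplasm in each same-numbered pair, at 6.56 against 3.55, 2.76 against 1.61 and 1.84 against 1.09 CPM. With the replicate number as a block its difference was 0.83 (adjusted p = 0.00334 by edgeR). Without the block, leaving out 1 library, which breaks a pair, gave 0.12 without nucleoplasm replicate 1, 0.68 without cytoplasm replicate 2 and 0.54 without cytoplasm replicate 3, none called. In the same way the difference of Shank3 between nucleoplasm and chromatin in mESC was -0.51 with the block (adjusted p = 0.00082) and lost its call without chromatin replicate 3 (-0.28). In mNPC and mCtx the numbers were not taken to pair samples. The call of Shank2 between nucleoplasm and cytoplasm in mNPC was lost without nucleoplasm replicate 2 or cytoplasm replicate 1 or 2 (0.86 to 1.03). In the same comparison the call of Dlg1 was lost without nucleoplasm replicate 1 (0.27). That of Homer1 between nucleoplasm and chromatin in mCtx was lost without nucleoplasm replicate 1 (-0.41) or chromatin replicate 3 (-0.35).

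The difference between chromatin and cytoplasm itself differed between cell types for some members. From mESC to mNPC the log2 ratio of chromatin to cytoplasm was higher for 3 genes and lower for 2 (16.7% and 23.5% of all genes), from mNPC to mCtx for 2 and 2 (12.2% and 21.8%), and from mESC to mCtx for 3 and 2 (17.7% and 32.5%). Rescaled TPM called 2 and 0 (21.5% and 23.0%), 3 and 2 (32.3% and 15.5%), and 4 and 1 (38.3% and 23.4%) in turn. TPM as deposited called 1 and 3 (11.1% and 32.3%), 7 and 0 (58.3% and 3.07%), and 7 and 0 (49.3% and 13.3%), with medians of all genes at -0.26, 0.78 and 0.56. The 3 comparisons share groups, and with each library left out in turn the first count of called genes ran from 2 to 6. Dlg3 shifted toward chromatin from mESC to mNPC by 2.00 (SE 0.185, adjusted p = 4.2e-09 by edgeR), and rescaled TPM gave 2.05. Dlgap1 shifted toward chromatin from mNPC to mCtx by 1.98 (SE 0.23, adjusted p = 3.59e-07), with 1.27 by rescaled TPM. Dlg4 shifted toward cytoplasm over the same step by -0.96 (SE 0.30, adjusted p = 0.0149), with -1.17 by rescaled TPM.

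Across the 9 genes, the count difference between chromatin and cytoplasm followed gene span. Spearman's rho over the genes was 0.72 in mESC, 0.83 in mNPC and 0.93 in mCtx by counts, and 0.18, 0.25 and 0.67 by rescaled TPM. This is a description over 9 genes that share libraries and are not independent replicates. Both the longest genes, Dlg2 and Dlgap1, and the shortest, Dlg4, stand at the ends of the mCtx range by counts, whereas by rescaled TPM Dlg2 (0.43) lies near Shank2 (0.42) and Shank1 (0.39).

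**Figure D5:**
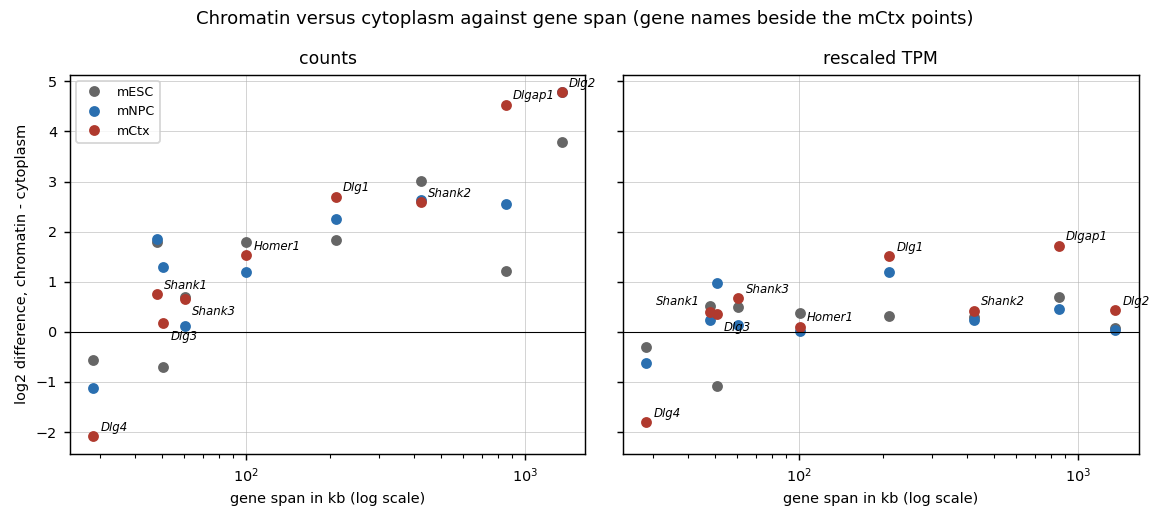
Log2 difference between chromatin and cytoplasm against gene span in kb (log axis) for the 9 scaffold genes, by counts (left) and rescaled TPM (right); points are genes, coloured by cell type. By counts the mCtx points climb from Dlg4 (-2.09) to Dlg2 (4.79); by rescaled TPM Dlgap1 (1.72) and Dlg1 (1.51) are the highest.

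The other genes of the postsynaptic density were read from a list of 40, and all 40 were tested. The list held 20 further scaffolds, 10 signalling enzymes, 7 genes listed as MAGUK partners and 3 genes of inhibitory synapses. Between mCtx and mNPC in cytoplasm 29 were higher and 6 lower by counts (32.6% and 33.4% of all genes). Their median log2 difference was 0.94, beside 2.99 for the 9 genes and 0 for all genes. Between mNPC and mESC 22 were higher and 11 lower (36.5% and 39.4%), and between mCtx and mESC 34 and 4 (40.1% and 41.6%). By TPM as deposited, mNPC versus mESC gave 11 higher and 12 lower (10.3% and 30.1% of all genes). The median there was -0.07, beside -0.06 for all genes. TPM called 25 and 3 for mCtx versus mNPC (17.5% and 11.2%), and 27 and 4 for mCtx versus mESC (17.6% and 29.1%). Cnksr2, a scaffold of Ras signalling, was higher in mCtx than in mNPC cytoplasm by 7.39 (SE 0.35), and Cit (-2.14) and Tanc1 (-1.93) were lower, all called by edgeR. Grip2, which binds AMPA receptors, had 0 reads in the 3 mNPC cytoplasm libraries and a mean of 12.6 CPM in mCtx, which is at least 70.7-fold higher with a floor of 3 counts per library.
Between chromatin and cytoplasm, 27 of the 40 were higher and 8 lower in mESC by counts (44.6% and 32.9% of all genes). In mNPC 26 were higher and 9 lower (37.0% and 32.5%), and in mCtx 24 and 8 (35.6% and 37.6%). TPM as deposited called 21 and 6 in mESC (56.8% and 16.4%), with a median of 0.42 beside 0.53 for all genes. It called 22 and 9 in mNPC (41.3% and 15.1%), and 31 and 5 in mCtx (68.9% and 9.99%). The medians there were 0.46 and 1.65, beside 0.24 and 1.03 for all genes. By counts, Grip1 and Dlgap2 were the furthest toward chromatin in mCtx, by 5.46 (SE 0.26) and 5.36 (SE 0.23). The dynein light chain genes Dynll1 (-5.19, SE 0.20) and Dynll2 (-3.54, SE 0.21) were the furthest toward cytoplasm there, as they were in mESC (-3.20 and -1.82) and in mNPC (-4.15 and -1.96).

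The genes whose log2 CPM pattern over the 27 libraries was most like each member's were read from 11772 protein-coding genes, as a description in which all genes share libraries. Dlg2 was followed most closely by Rbfox1 (Pearson's r = 0.996) and March1 (0.995), and Dlgap1 by Pde1a (0.994) and Unc80 (0.993). Dlg4 was most like Sbk1 (0.977) and Csdc2 (0.972), and Dlg3 like Madd (0.959) and Gopc (0.956). Dlg1 was most like Stag1 (0.986) and Tbc1d32 (0.981), and Homer1 like Gucy1a2 (0.982) and Zfhx4 (0.979). Among the Shank genes, Shank1 was most like Fbxo41 (0.992) and Hecw1 (0.991), Shank2 like Kcnma1 (0.991) and Phactr1 (0.990), and Shank3 like Scube1 and D430041D05Rik (both 0.981).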

How the data were processed

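Counts and TPM of 27 libraries were used. The authors' count table holds whole-number read counts per gene, and the authors' deposited TPM table was the second measure. The deposited chromatin columns are recorded under the unit expected counts, since a format check took their abbreviation for chromosome, but they hold whole-number counts. The submitters' processing notes name STAR, featureCounts, kallisto and mm10, with no versions or roles. Every one of the 37332 genes has a length equal to its genomic span, so counts take in introns. Symbols were looked up in GENCODE vM21, where 35449 IDs of the count table and 53274 of the 53379 IDs of the TPM table were found. Of the matched IDs of the count table, 24078 had the same coordinates in both. Gene positions are those of the deposited count table.

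A single edgeR 4.0.16 model (R 4.3.3) held the 9 groups as means, with TMM scaling, the default low-count filter and quasi-likelihood tests on 18 residual degrees of freedom. Its 21 contrasts were each adjusted by Benjamini-Hochberg over all genes, at 0.05. TPM were tested with limma 3.58.1 on log2(TPM + 1), for genes at 0.5 TPM or more in at least 3 libraries. Alternatives were DESeq2 1.42.0, median-ratio and total-count scaling, no filter, only the compared groups, a pseudocount of 0.1, the replicate block and each library left out. Rescaled TPM (each library divided by its median ratio to the others) and leaving out the mESC libraries numbered 1 were added after seeing the data. The tests were tested on simulated data. Start-site windows are RefSeq's for GRCm38.p6. The floor of 3 counts covers counting error only. Figures were drawn with matplotlib 3.10.9.

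The members, lists and tests were chosen with earlier results of these data known. From a list of 40 other postsynaptic genes the rule named, per contrast, the 2 most changed called genes in each direction with a mean of 5 CPM or more, and for each member the 2 protein-coding genes of highest Pearson correlation. The text gives each gene so named for at least 1 contrast.

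Whether replicate numbers pair samples was judged from how far libraries of one number deviated together from their groups. For mESC fractions the correlations were 0.278 to 0.66, all above 0.1, so these numbers were taken to pair the samples. The main tests left this pairing out, and the replicate block held it. Called members in mESC with the block were 9 for chromatin versus cytoplasm (9 without) and 7 for nucleoplasm versus chromatin (7). For nucleoplasm versus cytoplasm they were 5 (4). Lower correlations in the other groups do not show that samples were unpaired. The pairing was read from the data, since the labels do not say what a number stands for.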

Additional observations from a re-analysis of the deposited data

Results flagged for a closer look

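For 14 results the log2 ratio of chromatin to cytoplasm differed between 2 cell types, by the test of the difference itself (edgeR's quasi-likelihood test on counts, adjusted over all genes). The same test called 16.7% of all genes higher and 23.5% lower from mESC to mNPC. It called 12.2% and 21.8% from mNPC to mCtx, and 17.7% and 32.5% from mESC to mCtx. From mESC to mNPC the ratio was higher for Dlg1 (0.42), Dlg3 (2.0) and Dlgap1 (1.33) and lower for Shank3 (-0.57) and Homer1 (-0.61). The Dlg1 call was lost without mESC cytoplasm replicate 1 (0.33, adjusted p = 0.0672). The Shank3 call was lost without any 1 of 8 libraries, from -0.31 without mESC chromatin replicate 3 to -0.60 without mNPC chromatin replicate 1, and the others were mESC cytoplasm replicates 1 and 2, mNPC cytoplasm replicates 1 and 2, and mNPC chromatin replicates 2 and 3. The Homer1 call was lost without mESC cytoplasm replicate 1, mESC chromatin replicate 2 or 3, mNPC chromatin replicate 1 or mNPC cytoplasm replicate 2 (-0.55 to -0.49). With the replicate block all 3 were called, at 0.42 for Dlg1 (adjusted p = 0.0232), -0.55 for Shank3 (adjusted p = 0.0202) and -0.60 for Homer1 (adjusted p = 0.00468), and leaving out 1 mESC library breaks a pair. TPM as deposited called Dlgap1 in the opposite direction (-0.43, adjusted p = 0.0195 by limma), beside a median of -0.26 over all genes. With a pseudocount of 0.1 that value was -1.17 (adjusted p = 0.00173 by limma). Rescaled TPM did not call Dlgap1 (-0.25, adjusted p = 0.0863) and called neither Shank3 nor Homer1.

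From mNPC to mCtx the ratio was higher for Dlg1 (0.45) and Dlgap1 (1.98) and lower for Dlg3 (-1.12) and Dlg4 (-0.96), and the Dlg1 call was lost without mCtx chromatin replicate 3 (0.36, adjusted p = 0.0663). Dlg1 turned to -0.30 with total-count scaling and was not called by rescaled TPM (0.32, adjusted p = 0.118). Dlg3 turned to 0.39 by TPM as deposited, beside a median of 0.78 over all genes, and was -0.63 and called by rescaled TPM. From mESC to mCtx it was higher for Dlg1 (0.86), Dlg3 (0.88) and Dlgap1 (3.31) and lower for Dlg4 (-1.52) and Shank1 (-1.04). With total-count scaling Dlg1 turned to -0.17 and Dlg3 to -0.16, and rescaled TPM called both higher, at 1.19 and 1.42. Shank1 was 0.80 and called with TPM as deposited, beside a median of 0.56 over all genes, and -0.12 (adjusted p = 0.649) with rescaled TPM. With rescaled TPM Dlg3 rose by 2.05 from mESC to mNPC and Dlgap1 by 1.27 from mNPC to mCtx, both called.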

How the results depend on the processing

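The 112 results of single genes checked here are a part of all member results. They leave out mCtx versus mESC within a fraction, cell types compared in nucleoplasm, and part of the results not called. The reversed signs given below cover only these 112. Over them, DESeq2 kept 107 on their side of the threshold and leaving out 1 library kept 724 of 756. The replicate block kept all 112: with it, for example, Dlg4 between chromatin and cytoplasm in mESC was -0.60 (adjusted p = 0.000179), and the count of called members between nucleoplasm and cytoplasm in mESC was 5. Outside mESC the numbers were not taken to pair samples, as same-numbered libraries correlated by -0.01 to 0.189 in mNPC, -0.051 to 0.083 in mCtx and -0.058 to 0.055 between cell types. With the block, called members numbered 8 (7 without) for nucleoplasm versus chromatin in mCtx, 4 (3) for nucleoplasm versus cytoplasm in mNPC, and 6 for the ratios of mNPC versus mESC (5) and mCtx versus mNPC (4). Total-count scaling reversed 6 and weakened 16, and TPM settings reversed 7 to 11. Low counts in the lines limit Dlg2 and Shank1, and the depth behind the TPM is not known.

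Counts of called members moved by over 1.5 times in 9 comparisons, and the cause was not tested. With limma on log2(TPM + 1) they were 5 (main 8) for chromatin versus cytoplasm in mNPC, 5 (9) for nucleoplasm versus chromatin in mNPC, 1 (4) for nucleoplasm versus cytoplasm in mESC, 4 (7) for mNPC versus mESC in nucleoplasm, and 7 (4) for the ratio of mCtx versus mNPC. Without the TPM filter these 5 counts were 4, 4, 1, 4 and 7, and nucleoplasm versus cytoplasm in mNPC gave 1 (3). With a pseudocount of 0.1, nucleoplasm versus chromatin gave 5 in mNPC and 3 (7) in mCtx, nucleoplasm versus cytoplasm in mESC 1, and the ratios 2 (5) for mNPC versus mESC and 3 (5) for mCtx versus mESC. With rescaled TPM they were 4 and 4 for the first pair in mNPC, 2 for nucleoplasm versus cytoplasm in mESC and 1 in mNPC, 3 for mNPC versus mESC in nucleoplasm, and 2 for the ratio of mNPC versus mESC. With only the compared groups the ratios gave 3 for mNPC versus mESC and 7 for mCtx versus mNPC. Over the libraries left out, the ratio of mNPC versus mESC gave 2 to 6: 2 without mESC cytoplasm replicate 1, and 3 without mESC chromatin replicate 3, mNPC chromatin replicate 1 or mNPC cytoplasm replicate 2.

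Reversed signs by total-count scaling were Dlg3 for chromatin versus cytoplasm in mCtx (-0.40), Dlg1 (-0.45) and Dlg3 (-0.06) for mCtx versus mNPC in chromatin, Dlg1 (-0.30) for the ratio of mCtx versus mNPC, and Dlg1 (-0.17) and Dlg3 (-0.16) for that of mCtx versus mESC. With log2(TPM + 1), with or without the filter, and then with a pseudocount of 0.1, they were Dlg4 for chromatin versus cytoplasm in mESC (0.24, 0.25), Dlg4 (-0.64, -0.79) and Shank3 (-0.15, -0.31) for nucleoplasm versus chromatin in mNPC, Dlg3 in mCtx (0.00 in each, adjusted p = 1), Dlg1 for nucleoplasm versus cytoplasm in mNPC (-0.13, -0.18) and Dlg4 in mCtx (0.54, 0.55). The others were Homer1 for mNPC versus mESC in cytoplasm (-0.22, -0.27), Dlg2 in chromatin (-0.09, -0.48), and in the ratios Dlgap1 for mNPC versus mESC (-0.43, -1.17), Dlg3 for mCtx versus mNPC (0.39, 0.14) and Shank1 for mCtx versus mESC (0.80, not reversed at 0.1). With rescaled TPM they were Dlg2 for nucleoplasm versus chromatin in mESC (0.01), Shank1 in mNPC (0.10) and Shank2 in mCtx (0.08), Homer1 for nucleoplasm versus cytoplasm in mCtx (-0.03), Dlg2 (0.00) for mNPC versus mESC and Dlg1 (-0.06) for mCtx versus mNPC in chromatin, and Dlgap1 for the ratio of mNPC versus mESC (-0.25).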

Other observations

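Gphn, which encodes gephyrin, the main scaffold of inhibitory synapses, was very uneven by counts and even by TPM. The 3 mCtx cytoplasm libraries held 7613, 820 and 36775 reads of its span, or 475.9, 49.0 and 2878 CPM, while their TPM were 3.99, 4.01 and 3.88. In mESC cytoplasm the reads were 1341, 292 and 1707, and the TPM 0.79, 1.06 and 0.95. The counts of the mCtx chromatin libraries were 5457, 8527 and 7957. By counts the ratio of chromatin to cytoplasm of Gphn was lower in mCtx than in mNPC by -2.62 (SE 0.94, adjusted p = 0.0325 by edgeR), and by TPM as deposited it was higher by 1.81, beside a median of 0.78 over all genes.

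Lrrc7, which encodes a scaffold also known as densin, stood toward chromatin in mNPC by 4.89 (SE 0.185) on the log2 count scale. In the same cells Nlgn2, an adhesion protein of inhibitory synapses, was higher in nucleoplasm than in chromatin by 2.52 (SE 0.16) and than in cytoplasm by 2.21 (SE 0.16), all called by edgeR on counts.

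Other genes of the postsynaptic list stood out in single comparisons, all called by edgeR on counts. Anks1b, a scaffold of the postsynaptic density, was higher in mNPC than in mESC by 8.85 (SE 0.283) in chromatin, where mESC held 27, 18 and 6 reads per library and mNPC 8127, 6580 and 5323. Nos1, the neuronal nitric oxide synthase, had 0, 1 and 0 reads in the mNPC chromatin libraries and 236, 289 and 206 in those of mCtx. Lin7a, a MAGUK partner, had 1, 1 and 0 reads in mESC cytoplasm and 364, 275 and 213 in mCtx cytoplasm. Begain had 0, 0 and 1 reads in mNPC nucleoplasm and 389, 357 and 344 in mCtx nucleoplasm. The folds of these 3 genes are not given, since the lower group holds so few reads. Synpo, an actin-associated protein of spines, was lower in mNPC than in mESC chromatin by -4.04, on 6, 18 and 7 reads in mNPC. Homer3 was lower in mCtx than in mNPC chromatin by -1.61 and nucleoplasm by -1.43. TPM as deposited gave 0.17 and 0.63, beside medians of 0.87 and 0.66 over all genes.

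Between fractions, Magi2 was higher in mCtx nucleoplasm than cytoplasm by 3.42, and Mpdz, a multi-PDZ scaffold, by 1.53 in mESC and 1.60 in mNPC. Camk2b, a subunit of the calcium- and calmodulin-dependent kinase, was lower in mESC nucleoplasm than cytoplasm by -1.04, and Ppp1r9b, which encodes spinophilin, was higher in mESC nucleoplasm than chromatin by 1.10. The chromatin-to-cytoplasm ratio of Kalrn was higher in mCtx than in mESC by 2.44 (SE 0.335), and that of Dlg5 by 1.69 (SE 0.162). The ratio of Homer2 was lower in mNPC than in mESC by -1.46 (SE 0.187). Lin7c had a lower ratio in mCtx than in mESC by -2.79 (SE 0.204), with -1.38 by TPM as deposited, also called.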
